A study of Mus musculus with 10 samples.

Results

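The 40 genes described here belong to the apoptosis machinery and to the p53 response. They were chosen by symbol from a list set by function, and all 40 were found among the 18725 genes of the table. The tissue was the outer sulcus, the epithelial strip of the cochlear duct that holds the root cells, with the spiral ligament under it. The mice were C57BL/6J, 10 days old. Hypothyroid mice were offspring of dams whose drinking water held 0.05% methimazole, which blocks thyroid hormone synthesis, 1.0% sodium perchlorate monohydrate, which blocks iodide uptake, and 5.0% sucrose. Treatment ran from embryonic day 17 of gestation through lactation to day 10. Euthyroid mice were offspring of dams given vehicle over the same time. RNA of 5 hypothyroid and 5 euthyroid libraries was sequenced, and the series' title names the survival of root cells as its subject. The labels do not say whether each library came from a separate mouse, or from which litter, so p-values measure only the spread among these libraries. A litter effect and the treatment cannot be told apart. The text on RNA extraction in the labels speaks of femoral head cartilage at day 22, against every other label.

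Apoptosis through the mitochondrion is set by the BCL2 family. BAX and BAK open the outer mitochondrial membrane, BCL2 and its relatives hold them back, and BH3-only proteins relieve that restraint. Cytochrome c then leaves the mitochondrion, assembles with APAF1 and activates caspase 9, which activates executioner caspases, while inhibitor of apoptosis proteins (IAPs) oppose them. Death receptors such as FAS start the same cascade from the cell surface through caspase 8. The transcription factor p53 raises the transcription of several of these genes after DNA damage or stress and is itself held low by MDM2. In the cochlea, programmed cell death shapes the epithelium before hearing begins, and thyroid hormone is needed for that remodelling.

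The libraries held 19298145 to 19407592 estimated counts in the hypothyroid group and 19781921 to 20063961 in the euthyroid group. The textbook thyroid hormone targets Hr and Klf9 fell 19.8-fold and 11.8-fold (edgeR adjusted p = 7.84e-16 and 2.50e-06). They belong to a list of 5 thyroid hormone check genes, of which 4 were lower and 1 higher. Of 6 root cell and outer sulcus markers 5 were lower, and their summed level was 1734 to 2447 CPM (counts scaled to library size after TMM adjustment for composition) in hypothyroid and 4614 to 5249.5 CPM in euthyroid libraries. All 7 bone cell markers were lower (27.0 to 48.2 against 1036 to 1597 CPM), and of 8 hair cell markers 6 were lower and 1 higher (32.2 to 41.8 against 44.1 to 100.2 CPM). All 7 proliferation markers were higher, at 62.9 to 101 CPM against 18.8 to 28.8 CPM, as were all 10 macrophage markers (451 to 575 against 303 to 335 CPM) and all 6 melanocyte markers (864 to 1655 against 398 to 606 CPM). Chondrocyte markers split, 5 lower and 2 higher of 7 (13174 to 14189 against 32757 to 38081 CPM), and all 3 tested osteoclast markers were lower (82.5 to 106 against 161 to 236 CPM). Fibrocyte markers split, 3 lower and 2 higher of 6, with 9794 to 12546 against 16708 to 20260 CPM. Summed erythroid, neutrophil and lymphocyte markers overlapped between the groups (495 to 714 against 441 to 813 CPM, 33.4 to 63.4 against 43.8 to 90.5 CPM, and 9.87 to 10.9 against 8.30 to 13 CPM). No marker in the table was at 0 in every library. The part of these cell types in the results below was not tested, and in bulk tissue fewer cells of a type and less RNA per cell cannot be told apart.

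Apoptosis and p53 response genes moved in both directions in hypothyroid tissue. Of the 39 genes with enough counts for a test, 14 rose, 14 fell and 11 did not pass (edgeR's quasi-likelihood test, Benjamini-Hochberg adjusted p under 0.05). The share that passed, 71.8%, was that of all 14862 genes tested, also 71.8%, of which 37.7% were higher and 34.1% lower. The median log2 fold change of the 39 was -0.05, against 0.04 over all genes tested. Changes of at least 1.5-fold were seen in 11 of the 39 (28.2%, against 33.6% of all genes), and of at least 2-fold in 6 (15.4%, against 17.2%). Of these 3 were higher and 3 lower, while 9.25% of all genes were higher and 7.91% lower by that much. The groups did not overlap in 24 of the 39 (61.5%, against 57.9% of all genes). The list as a whole therefore stood near the background on each count. The 11 genes that changed at least 1.5-fold were Casp12, Gadd45b, Bcl2l11, Hrk, Apaf1 and Casp2, which were higher, and Gadd45a, Bik, Gadd45g, Fas and Cycs, which were lower.

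**Figure D1:**
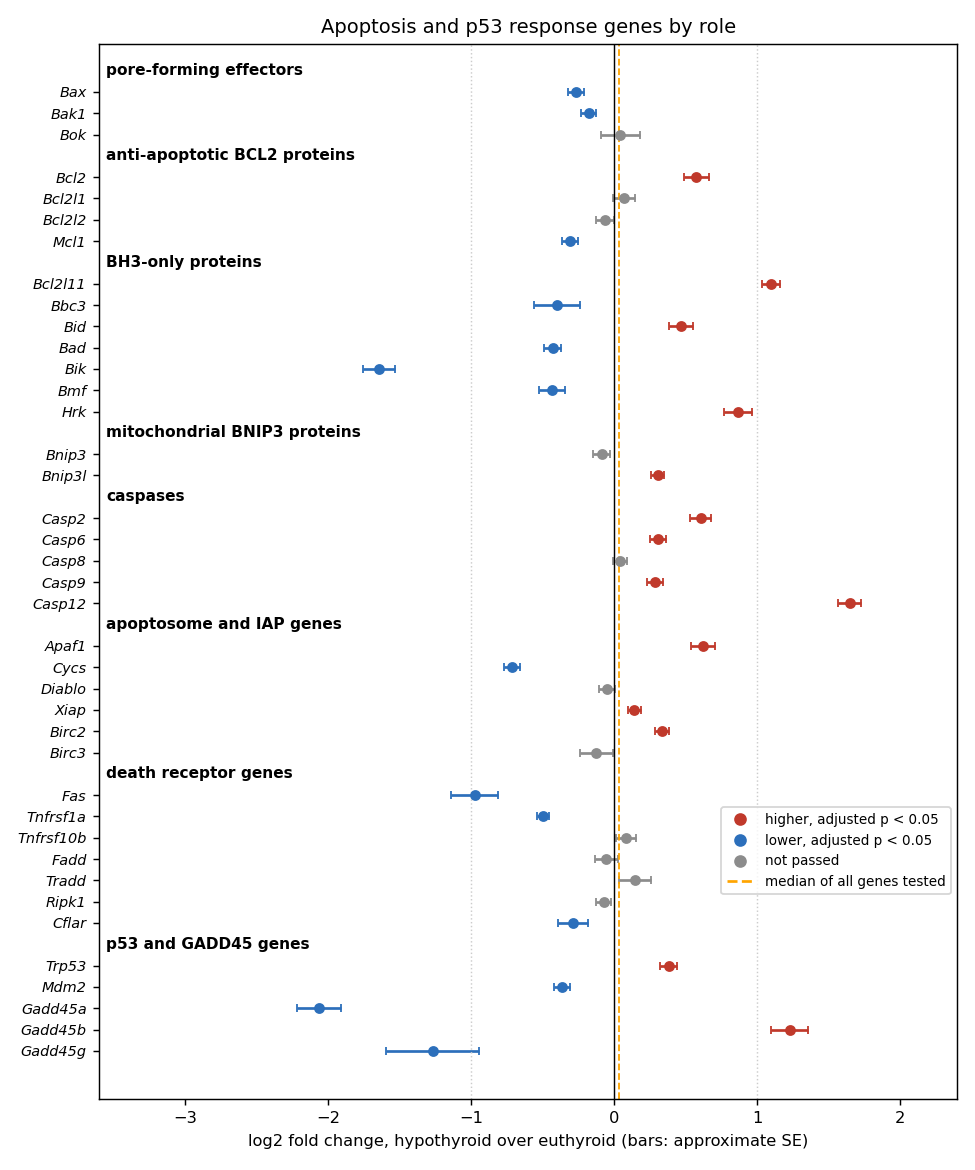
Log2 fold change of hypothyroid over euthyroid libraries for the 39 tested genes, grouped by role, with an approximate standard error (the fold change over the square root of its F statistic). The values run from -2.07 for Gadd45a to 1.65 for Casp12, and the dashed line marks the median of all genes tested, 0.04.

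The direction of small changes depended on how the libraries were scaled. The values above were adjusted for library composition with TMM factors. Without these factors, on library sizes alone, the median of all genes moved to 0.30, and 24 of the 39 genes were higher and 7 lower. With upper quartile factors 17 were higher and 11 lower (median of all genes 0.15), and with limma on TPM (scaled transcript abundance, adjusted for length), 22 were higher and 8 lower (median 0.25). Among the 28 genes that passed, 21 kept their direction and passed in all 21 alternatives, 14 of them higher and 7 lower. The 7 that lost the call in at least 1 alternative were Bax, Bak1, Mcl1, Bbc3, Bmf, Cflar and Mdm2, all lower as reported. The plot of fold changes under 3 scalings shows each gene under all of them.

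**Figure D2:**
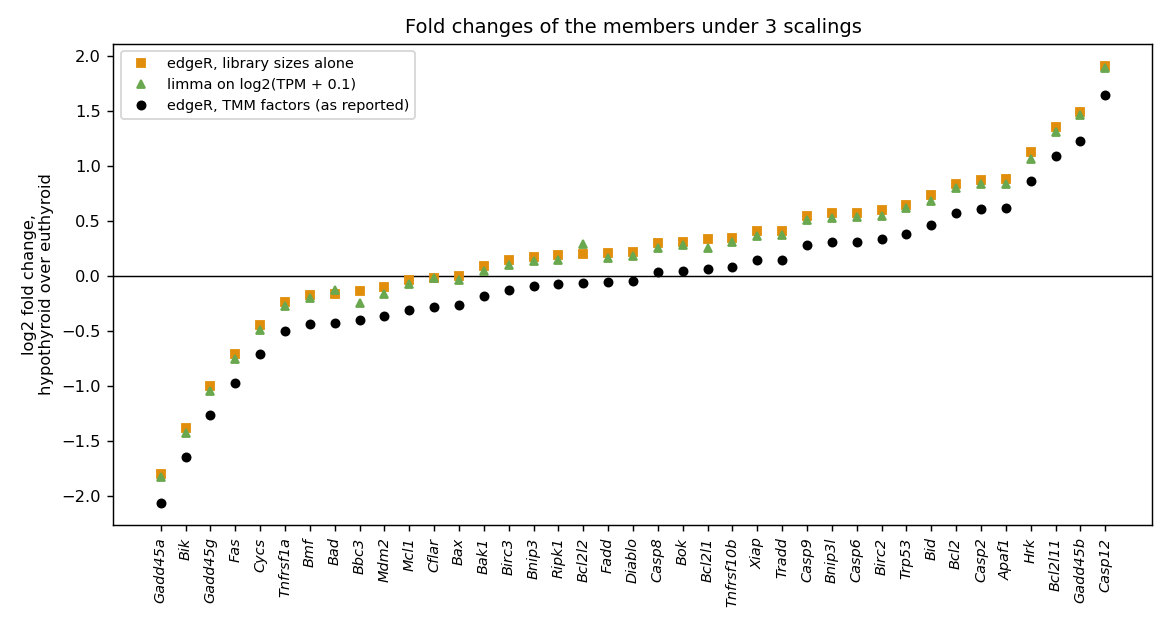
Log2 fold change of each tested gene under TMM factors (circles), library sizes alone (squares) and limma on log2(TPM + 0.1) (triangles), ordered by the TMM value. Both alternatives lie above the TMM value at each gene, by about the same amount for library sizes and by amounts that differ between genes for TPM. The median of all genes is 0.30 and 0.25, against 0.04 with TMM factors.

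Genes of the pore-forming effectors differed little. Bax, which encodes the more abundant effector, had 28.9 ± 0.844 CPM in hypothyroid and 34.8 ± 2.22 CPM in euthyroid libraries (SD, n = 5 each; log2 fold change -0.27, edgeR adjusted p = 0.000508). Bak1 had 26.7 ± 1.16 and 30.2 ± 1.06 CPM (log2 fold change -0.18, edgeR adjusted p = 0.00731), and in both genes the groups did not overlap. These changes were no larger than about the scaling shift. Scaled by library size alone, Bax was at 0.00 (adjusted p = 0.981) and Bak1 turned to 0.09 (adjusted p = 0.169), and Bak1 was also not called with upper quartile factors (-0.07). Neither gene was called with limma on TPM. Per length and without TMM adjustment, the 3 effector genes summed to 139 ± 3.84 TPM in hypothyroid and 139 ± 5.79 TPM in euthyroid libraries. Bax made up 66.9% and 68.9% of these sums. Bok, a less understood effector, did not pass (5.76 ± 0.647 and 5.6 ± 1.05 CPM, edgeR adjusted p = 0.792). In the annotation Bax shares 22.2% of its exon bases with Gm45808 on the same strand, and Bak1 10.7% with Ggnbp1 on the other, so reads of these pairs could be mixed.

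Among the genes that restrain BAX and BAK, Bcl2 rose and Mcl1 fell. Bcl2 had 37.4, 49.6, 40.8, 39.5 and 44.1 CPM in the hypothyroid libraries, against 31.7, 31.2, 29.1, 25.7 and 24.1 CPM in the euthyroid ones. Every hypothyroid library was above every euthyroid one (log2 fold change 0.57, SE 0.09, 1.49-fold, edgeR adjusted p = 3.96e-05). Mcl1, whose protein is short-lived, had 185 ± 6.46 and 229 ± 18.3 CPM (log2 fold change -0.31, edgeR adjusted p = 0.000123). Scaled by library size alone it was at -0.04 and did not pass (adjusted p = 0.453). With limma on log2(TPM + 0.1) it did not pass either (-0.08, limma adjusted p = 0.159). Of the exon bases of Bcl2, 6.09% are shared with an antisense gene. Bcl2l1, the gene of BCL-XL, did not pass (log2 fold change 0.07, edgeR adjusted p = 0.443) but passed with library sizes alone (0.33). Bcl2l2, the gene of BCL-W, did not pass either (log2 fold change -0.06, edgeR adjusted p = 0.381), and it passed in the other direction with library sizes alone (0.20, adjusted p = 0.0127). Its exons share 14.6% of their bases with the read-through gene Gm20521.

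Per length, Mcl1 was the most abundant of the 4, with 40.3% ± 1.54 of their summed TPM in hypothyroid and 46.9% ± 1.36 in euthyroid libraries (SD, n = 5 each). Bcl2 stayed the least abundant, with 4.42% ± 0.465 and 2.82% ± 0.508. The sum itself was 337 to 371 TPM in hypothyroid and 294 to 344 TPM in euthyroid libraries, and these ranges overlapped. The ratio of Bax to Bcl2, in TPM, was 5.11 to 7.06 in hypothyroid and 8.74 to 12.8 in euthyroid libraries, without overlap. Summed over each class, however, effector over anti-apoptotic TPM was 0.371 to 0.427 and 0.404 to 0.460, which overlapped. These sums and ratios are descriptions of the chosen genes, with no test, and the sums carry no TMM adjustment for library composition.

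BH3-only genes all passed where they could be tested, 3 of 7 higher and 4 lower (3 and 2 with library sizes alone). Of all genes tested 71.8% passed, 37.7% as higher and 34.1% as lower. Bcl2l11, the gene of BIM, which binds all of the anti-apoptotic proteins, rose most. It had 34.7, 39.0, 38.7, 35.4 and 37.0 CPM in the hypothyroid libraries, against 18.1, 15.3, 17.7, 18.1 and 17.4 CPM in the euthyroid ones, so the groups lay far apart (log2 fold change 1.09, SE 0.06, 2.13-fold, edgeR adjusted p = 6.25e-10). Hrk, the gene of harakiri, best known from neurons, had 12.9, 18.7, 15.9, 15.8 and 14.9 CPM, against 8.54, 8.19, 8.41, 9.41 and 8.37 CPM in euthyroid libraries. It was higher in each hypothyroid library (log2 fold change 0.87, SE 0.10, 1.82-fold, edgeR adjusted p = 1.09e-06). Bid, whose product links caspase 8 to the mitochondrion, rose 1.38-fold to 17.9 ± 1.98 CPM, against 12.9 ± 0.851 CPM in euthyroid libraries (SD, n = 5 each; edgeR adjusted p = 0.000174).

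Bik, a BH3-only gene of the endoplasmic reticulum known from epithelial cells, fell most. Its levels were 2.85, 2.90, 3.13, 2.86 and 3.25 CPM in hypothyroid libraries, against 10.5, 9.37, 8.29, 10.5 and 8.32 CPM in euthyroid ones. Even the lowest euthyroid library was well above the highest hypothyroid one (log2 fold change -1.65, SE 0.11, 3.13-fold, edgeR adjusted p = 4.25e-09). Its position on GRCm38.p6 is chr15:83526790-83544635. Bad, a BH3-only gene under the control of growth factor signals, fell 1.35-fold (25.9 ± 1.60 and 34.9 ± 1.67 CPM; SD, n = 5 each; edgeR adjusted p = 9.38e-06). Bmf, tied to cell detachment, also fell 1.35-fold (58.5 ± 4.53 and 79.1 ± 12 CPM, edgeR adjusted p = 0.000687). That call was lost when only library size was scaled for (-0.17) and with limma on TPM at each setting (limma adjusted p = 0.0759 to 0.0932). Bad shares 21.6% of its exon bases with Gpr137 on the other strand.

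The p53 targets of this class were at low levels. Bbc3, the gene of PUMA, had 2.37 ± 0.443 CPM in hypothyroid and 3.14 ± 0.441 CPM in euthyroid libraries, and the groups overlapped (SD, n = 5 each; log2 fold change -0.40, edgeR adjusted p = 0.0377). That call was lost in 11 of 21 alternatives, among them leaving out hypothyroid replicate 2 (adjusted p = 0.0544), 3 (0.0934) or 5 (0.0862) or euthyroid replicate 3 (0.0765) or 5 (0.0977), and its adjusted p ran from 0.0253 to 0.466. Pmaip1, the gene of NOXA, was too low to be tested, with 34 counts over the hypothyroid libraries (1 to 11 each) and 58 over the euthyroid ones (8 to 16 each). Without a filter on low counts its log2 fold change was -0.99 (edgeR adjusted p = 0.0519).

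The summed TPM of the 8 BH3-only genes hardly differed, at 169.6 ± 6.18 in hypothyroid and 169.6 ± 8.8 in euthyroid libraries, while their make-up did. Bcl2l11 took 13.1% ± 0.765 of the sum in hypothyroid and 5.26% ± 0.592 in euthyroid libraries, and Bik 4.96% ± 0.202 and 13.5% ± 1.52 (SD, n = 5 each). Bad was the most abundant member in both groups, with 39.9% ± 1.82 and 43.7% ± 2.54.

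**Figure D3:**
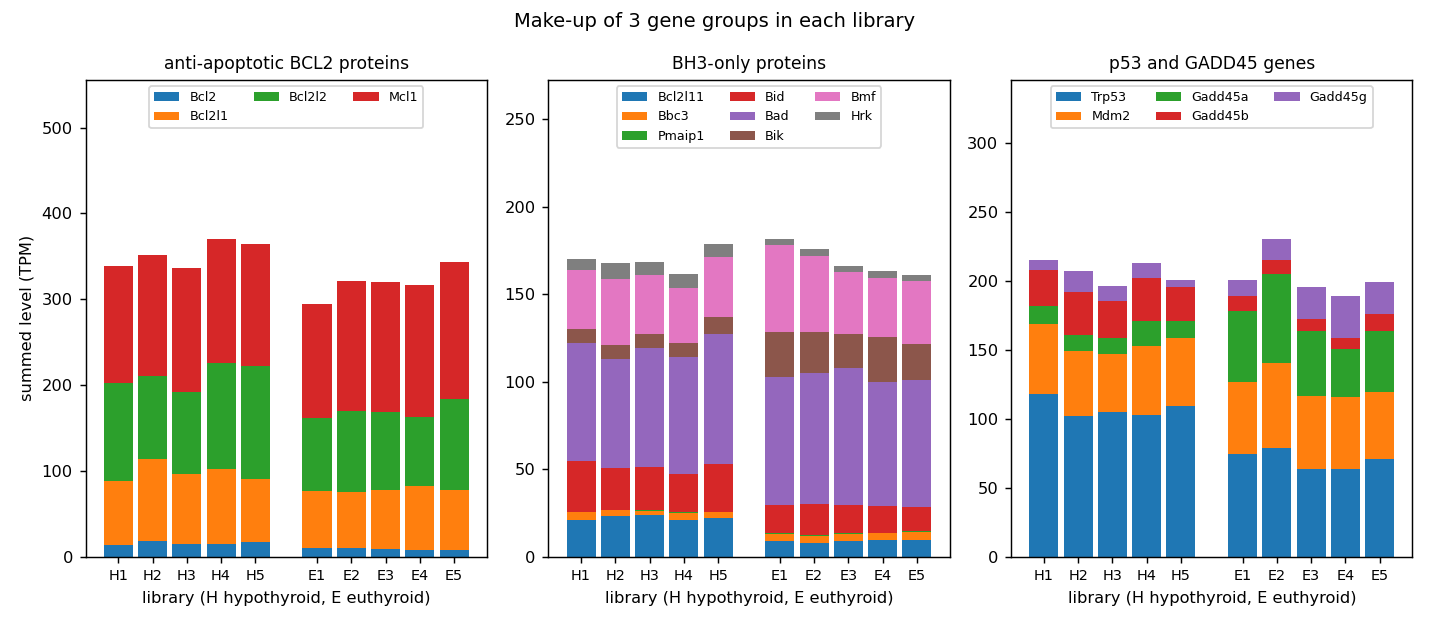
Summed TPM of the anti-apoptotic BCL2 genes, the BH3-only genes and the p53 and GADD45 genes in each library, split by gene, with hypothyroid libraries on the left of each panel. BH3-only sums are alike, 169.6 against 169.6 TPM on average, with a larger part from Bcl2l11 and a smaller one from Bik in hypothyroid libraries. TPM carries no TMM adjustment for library composition.

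Of the related pair Bnip3 and Bnip3l, which target mitochondria for removal by autophagy, Bnip3l rose 1.23-fold (331 ± 17.1 CPM in hypothyroid and 268 ± 4.84 CPM in euthyroid libraries, SD, n = 5 each; edgeR adjusted p = 1.66e-05). It was the most abundant of the 40 genes per length in both groups, with 273 and 189 TPM. Bnip3l is also abundant in maturing red cells. Of the 9 erythroid markers measured, 2 fell and 0 rose, their sums overlapped between the groups, and the part of red cells in the Bnip3l value was not tested. Bnip3 did not pass (log2 fold change -0.09, edgeR adjusted p = 0.203) and passed in the other direction with library sizes alone (0.18, adjusted p = 0.00919). Its exons share 27.2% of their bases with an antisense gene, and a pseudogene named after Bnip3l is annotated.

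Caspase genes were higher or did not pass. Of 5, 4 rose and 0 fell, against 71.8% of all genes that passed and 37.7% that were higher. With library sizes alone all 5 were higher, as were 74.7% of all genes that passed. Casp12, which in mice encodes a caspase of the endoplasmic reticulum, had the largest increase of the 39 genes. It had 23.0, 27.3, 27.0, 24.2 and 26.7 CPM in hypothyroid libraries, against 8.27, 8.13, 7.96, 7.32 and 9.20 CPM in euthyroid ones. The groups were separated by more than their whole ranges (log2 fold change 1.65, SE 0.08, 3.13-fold, edgeR adjusted p = 8.98e-11). Its position on GRCm38.p6 is chr9:5345442-5373034. Casp2, the caspase activated by the PIDDosome, rose 1.52-fold. Its values were 46.4, 40.8, 42.8, 40.7 and 44.2 CPM, against 28.4, 33.8, 26.6, 25.1 and 27.3 CPM in euthyroid libraries. All hypothyroid values exceeded all euthyroid ones (log2 fold change 0.61, SE 0.07, edgeR adjusted p = 2.72e-06).

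The initiator caspase gene of the apoptosome, Casp9, rose 1.22-fold (40.3 ± 1.66 and 33.1 ± 2.09 CPM), and the executioner gene Casp6 rose 1.24-fold (35.3 ± 0.590 and 28.6 ± 1.66 CPM; SD, n = 5 each; edgeR adjusted p = 0.000305 and 9.52e-05). Casp8, the initiator caspase of death receptors, did not pass (34.1 ± 0.802 and 33.2 ± 1.29 CPM, edgeR adjusted p = 0.489) except with other scalings, where its log2 fold change reached 0.30. TPM carries no TMM adjustment for library composition. The summed TPM of the 5 genes was 187 to 200 in hypothyroid and 114 to 134 in euthyroid libraries. Casp12 made up 15.5% ± 1.39 of it in hypothyroid and 6.56% ± 0.677 in euthyroid libraries. Macrophage and proliferation markers were higher in the same libraries, and their part in these values was not tested.

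Downstream of the mitochondrion, the partners of the apoptosome moved apart. Apaf1, its scaffold gene, had 34.9, 34.3, 30.3, 28.1 and 35.8 CPM in hypothyroid libraries, against 23.0, 23.9, 21.1, 19.4 and 18.8 CPM in euthyroid ones. It was higher in each hypothyroid library (log2 fold change 0.62, SE 0.08, 1.54-fold, edgeR adjusted p = 8.58e-06). Cycs, the gene of cytochrome c, which also carries electrons in the respiratory chain, had 70, 75.2, 87.0, 84.1 and 77.1 CPM, against 125, 128, 125, 135 and 133 CPM in euthyroid libraries. It was lower in each hypothyroid library (log2 fold change -0.72, SE 0.06, 1.64-fold, edgeR adjusted p = 2.24e-08). The annotation names 2 pseudogenes after Cycs, so its estimated counts may include reads divided with them. Copies under other names were not counted.

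Of the 3 IAP genes, Birc2 rose 1.26-fold (58.9 ± 2.2 and 46.8 ± 2.28 CPM) and Xiap, the direct caspase inhibitor, 1.10-fold (179 ± 11.2 and 163 ± 3.63 CPM, overlapping; edgeR adjusted p = 0.0134). Birc3 did not pass (9.29 ± 1.29 and 10.1 ± 1.4 CPM, edgeR adjusted p = 0.350), and its log2 fold change of -0.12 turned to 0.14 with library sizes alone (adjusted p = 0.287). Diablo, whose product antagonises IAPs, did not pass (log2 fold change -0.05, edgeR adjusted p = 0.438) and passed as higher with library sizes alone (0.22). A gene on the same strand, Gm49027, shares 32.9% of its exon bases.

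Genes of the death receptor pathway fell or did not pass, 3 and 4 of 7. The share that passed was 42.9%, against 71.8% of all genes tested. Lower genes made up 34.1% of all genes tested. Fas, a p53 target at the cell surface, was low, at 1.17, 1.14, 0.964, 1.43 and 1.23 CPM in hypothyroid libraries, against 2.0, 2.26, 2.2, 2.70 and 2.55 CPM in euthyroid ones. These levels rest on 126 and 212 counts over the groups, which did not overlap (log2 fold change -0.98, SE 0.17, 1.97-fold, edgeR adjusted p = 8.53e-05). Tnfrsf1a, the main receptor of tumour necrosis factor, had 91.5, 84.2, 88.3, 82.8 and 83.7 CPM, against 117, 122, 124, 126 and 120 CPM in euthyroid libraries. All hypothyroid values were below all euthyroid ones (log2 fold change -0.50, SE 0.04, 1.41-fold, edgeR adjusted p = 5.49e-08).

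Cflar, whose product blocks caspase 8 at the receptor, had 81.3 ± 10.3 and 99.2 ± 13.3 CPM, overlapping (SD, n = 5 each; log2 fold change -0.29, edgeR adjusted p = 0.0264). The call was lost without hypothyroid replicate 1 (adjusted p = 0.0624) or euthyroid replicate 2 (0.0534). Library sizes alone (-0.02), upper quartile factors (-0.18) and limma on TPM also lost it, and its adjusted p ran from 0.00352 to 0.869. The TRAIL receptor gene Tnfrsf10b and the adaptor and kinase genes Fadd, Tradd and Ripk1 did not pass, with log2 fold changes of 0.08, -0.06, 0.15 and -0.07. When scaled by library size alone these 4 genes passed as higher, and only Fas and Tnfrsf1a of the 7 were lower. The values of Fadd and Ripk1 then turned to 0.21 and 0.19. Fadd and Ripk1 share 6.12% and 7.5% of their exon bases with other genes.

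The p53 gene and the gene of its inhibitor moved in opposite directions. Trp53 had 78.3, 69.3, 73.6, 67.6 and 71.7 CPM in hypothyroid libraries, against 57.3, 59.8, 51.2, 51.0 and 57.4 CPM in euthyroid ones, without overlap (log2 fold change 0.38, SE 0.06, 1.3-fold, edgeR adjusted p = 2.67e-05). The annotation names a pseudogene after Trp53, so its reads may be divided. Mdm2, itself a p53 target, had 60.2, 57.0, 52.6, 59.3 and 57.9 CPM, against 70.7, 82.0, 74.9, 73.0 and 68.4 CPM in euthyroid libraries (log2 fold change -0.36, SE 0.06, 1.29-fold, edgeR adjusted p = 3.08e-05). It was lower in each hypothyroid library, but scaled by library size alone it did not pass (-0.10, adjusted p = 0.162). RNA levels of Trp53 do not measure p53 activity, which is set mainly at the protein.

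The 3 GADD45 genes, small stress-induced regulators of kinases and DNA repair, changed most in this class and not in the same direction. Gadd45a, a p53 target, had 5.94, 5.18, 5.64, 7.99 and 5.37 CPM in hypothyroid libraries, against 26.6, 32.7, 25.1, 18.4 and 23.4 CPM in euthyroid ones. This was the largest decrease of the 39 genes (log2 fold change -2.07, SE 0.15, 4.19-fold, edgeR adjusted p = 3.60e-08), and the groups lay far apart. Gadd45b, a target of NF-kB and TGF-beta signals, rose 2.34-fold. Its values were 11.8, 14.5, 12.4, 14.3 and 11.1 CPM, against 5.89, 5.49, 4.63, 4.34 and 6.98 CPM in euthyroid libraries, without overlap (log2 fold change 1.23, SE 0.13, edgeR adjusted p = 5.36e-07). Gadd45g was the most variable, with 2.90, 6.13, 4.58, 4.15 and 2.07 CPM, against 5.29, 6.73, 11.1, 14.3 and 10.5 CPM in euthyroid libraries. The groups overlapped, since hypothyroid replicate 2 lay above euthyroid replicate 1 (log2 fold change -1.27, SE 0.33, 2.41-fold, edgeR adjusted p = 0.00485). In all 21 alternatives each of the 3 kept its direction and passed. Gadd45a shares 19.5% of its exon bases with the antisense gene E230016M11Rik.

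**Figure D4:**
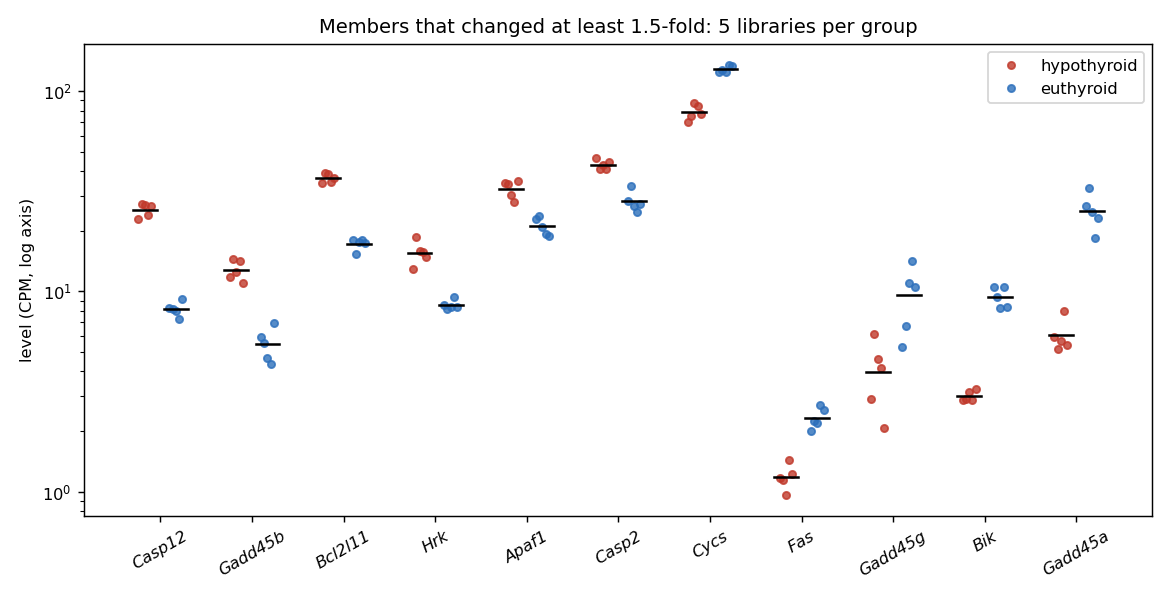
Level in CPM (log axis) of the 11 genes that changed at least 1.5-fold, in 5 hypothyroid and 5 euthyroid libraries each, with a line at the mean. The groups are apart in each gene but Gadd45g, where hypothyroid libraries reach 6.13 CPM and euthyroid libraries begin at 5.29 CPM.

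The promoter stretches of the 3 GADD45 genes are shown because these paralogs moved apart, and those of Casp12 and Bcl2l11 because they had the largest increases outside this family. Each runs 5′ to 3′ on the strand of the gene and ends at the last base before the gene in RefSeq on GRCm38.p6 (chr6:67037408-67037637, minus strand; chr10:80929861-80930090, plus; chr13:51846445-51846674, plus; chr9:5345246-5345441, plus; chr2:128125808-128126037, plus). Capitals mark matches, on either strand, to the TATA box TATAAA, the NF-Y box CCAAT, the SP1 box GGGCGG, the nuclear receptor half-site AGGTCA, the forkhead core GTAAACA, the cyclic AMP element TGACGTCA, the E-box CACGTG or the p53 half-site consensus, which may overlap.
Gadd45a: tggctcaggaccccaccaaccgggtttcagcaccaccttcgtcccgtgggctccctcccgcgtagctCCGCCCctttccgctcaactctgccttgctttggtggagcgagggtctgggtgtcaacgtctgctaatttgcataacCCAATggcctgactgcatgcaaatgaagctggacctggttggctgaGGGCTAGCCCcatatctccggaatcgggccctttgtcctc
Gadd45b: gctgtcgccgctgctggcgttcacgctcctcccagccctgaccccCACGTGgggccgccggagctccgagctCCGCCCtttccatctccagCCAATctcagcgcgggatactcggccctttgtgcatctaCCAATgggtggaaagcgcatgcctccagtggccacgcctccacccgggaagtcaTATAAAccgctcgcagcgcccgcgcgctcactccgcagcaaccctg
Gadd45g: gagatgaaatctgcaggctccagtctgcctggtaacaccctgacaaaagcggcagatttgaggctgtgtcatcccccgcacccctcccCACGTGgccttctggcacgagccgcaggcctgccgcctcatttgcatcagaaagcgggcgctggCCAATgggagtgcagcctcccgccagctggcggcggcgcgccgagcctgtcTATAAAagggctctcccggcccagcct
Casp12: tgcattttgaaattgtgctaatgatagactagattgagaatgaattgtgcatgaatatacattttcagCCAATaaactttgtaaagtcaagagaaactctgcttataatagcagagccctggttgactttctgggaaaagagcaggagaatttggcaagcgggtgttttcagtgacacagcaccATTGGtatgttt
Bcl2l11: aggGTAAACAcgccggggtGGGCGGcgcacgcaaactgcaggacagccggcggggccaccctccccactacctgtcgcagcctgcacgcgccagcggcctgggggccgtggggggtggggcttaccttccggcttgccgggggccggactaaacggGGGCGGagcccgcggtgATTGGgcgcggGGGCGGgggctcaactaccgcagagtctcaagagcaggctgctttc

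Promoters on chromosome 18, which holds Pmaip1, were left out here and from the shares over all promoters. The rest gave 47 promoters for 35 members. Letters matching the p53 half-site consensus stood in 5 of the 47, those of Gadd45a, Bax, Bmf, Mdm2 and Trp53, and in 7.13% of all 32851 promoters of the same 250 bases. The sequence TATAAA stood in Gadd45b and Gadd45g and not in Gadd45a (12.4% of all promoters), as did CACGTG (6.02%), while CCAAT was found in all 3 (33.8%). The forkhead core GTAAACA stood in 3 of the 47, those of Bbc3, Bcl2l11 and Mdm2, and in 3.17% of all promoters. In Bcl2l11 it stood in the promoter shown and not in another of this gene. The Bcl2l11 stretch shown had 72.6% G and C against 37.8% for Casp12. The thyroid hormone half-site AGGTCA matched in 3 of the 47, those of Bcl2l1, Bcl2l2 and Bmf, and in 14.0% of all promoters. GGGCGG stood in 29 of the 47 promoters of these 35 members (32.7% of all promoters) and TGACGTCA in 2 of the 47 (1.55%). A match, or the lack of one in these bases, shows nothing about binding.

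Genes known as p53 targets in other tissues were read beside the members. Of 25 further targets, 12 were higher and 8 lower, against 14 and 5 with library sizes alone (median log2 fold change 0.07). The share that passed was 80.0%, against 71.8% of all genes. The 3 with the smallest adjusted p were all lower. Cdkn1a, the cell cycle inhibitor p21, fell 3.13-fold to 108 ± 11.9 CPM, against 337 ± 25.5 CPM in euthyroid libraries (SD, n = 5 each; edgeR adjusted p = 1.02e-10). Polk, a DNA polymerase of damage bypass, fell 1.77-fold, and Ei24 1.37-fold. Pidd1, whose product activates caspase 2, was singled out after its values were seen, and it rose 2.03-fold (4.74 ± 0.850 and 2.33 ± 0.315 CPM, edgeR adjusted p = 2.82e-05). At least 2-fold, 5 of the 25 were higher (Psrc1, Ckap2, Tnfrsf18, Eda2r and Pidd1) and 2 lower (Trp53inp1 and Cdkn1a). That is 28% of the 25, against 17.2% of all genes. Several targets that were higher, such as Ckap2, Gtse1 and Psrc1, are also genes of dividing cells. Proliferation markers were higher in the same libraries, and their part here was not tested. Of 13 tested p53 regulators and relatives 7 were higher and 2 lower, against 10 and 2 with library sizes alone (median 0.42). Of these 13, 69.2% passed, against 71.8% of all genes. Trp53bp1, a DNA break repair gene, rose 1.53-fold, the checkpoint kinase gene Chek1 3.16-fold, and Trp53bp2, whose product binds p53, fell 1.5-fold (edgeR adjusted p = 9.89e-09, 4.03e-07 and 4.14e-08).

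Among 23 other genes of the apoptosis machinery 9 were higher, 9 lower and 5 did not pass, with none past 2-fold (median -0.07). The share that passed was 78.3%, against 71.8% of all genes. Bag3, a cochaperone gene, fell 1.88-fold (61.5 ± 1.5 and 115 ± 6.30 CPM), and Vdac2, a channel of the outer mitochondrial membrane that holds BAK, 1.43-fold. Bcl2l12 rose 1.76-fold. On library sizes alone 12 of the 23 were higher and 3 lower.

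Further death receptor and necroptosis genes were 3 higher, 7 lower and 8 not passing, of 18 tested (median -0.12), and 8 higher and 2 lower with library sizes alone. Of the 18, 55.6% passed, against 71.8% of all genes. Tnfaip3, an inhibitor of NF-kB signals, rose 2.84-fold to 13.6 ± 1.66 CPM, against 4.79 ± 0.771 CPM in euthyroid libraries (SD, n = 5 each; edgeR adjusted p = 2.79e-08). Tnfrsf12a, the receptor of TWEAK, fell 2.60-fold, and Tnfsf10, the gene of TRAIL, 1.77-fold. The ligand genes Fasl and Tnf were too low to be tested, at means of 0.00942 and 0.159 CPM in hypothyroid and 0.0662 and 0.0986 CPM in euthyroid libraries.

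Most genes of the unfolded protein and integrated stress responses fell. Of 15, 11 fell, 0 rose and 4 did not pass (73.3% passed, against 71.8% of all genes; median -0.71), and 10 of the 15 fell at least 1.5-fold, against 15.1% of all genes. On library sizes alone 10 were lower and 1 higher (median -0.44). The stress sensor gene Eif2ak3 had 48.5 ± 1.35 CPM in hypothyroid and 88.7 ± 2.71 CPM in euthyroid libraries, a fall of 1.83-fold (SD, n = 5 each; edgeR adjusted p = 9.18e-11). Herpud1, a gene of protein disposal, fell 2.2-fold and the cochaperone gene Dnajc3 1.93-fold. Bone cell and most chondrocyte markers were also lower in these libraries, and their part in these values was not tested.

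Hypoxia response genes, to which Bnip3 is often counted, were 4 higher, 7 lower and 4 not passing of 15 (median -0.20; 5 higher, 4 lower and median 0.06 with library sizes alone). Of the 15, 73.3% passed, against 71.8% of all genes. Higd1a fell 2.84-fold, Pdk1 2.05-fold and P4ha1 1.54-fold. Genes for the removal of dying cells were 5 higher, 4 lower and 6 not passing of 15 tested (median 0.08; 10 higher and 4 lower with library sizes alone). Of these, 60% passed, against the same 71.8%. Stab1, a receptor gene of macrophages and endothelium, rose 2.05-fold (173 ± 19.2 and 84.5 ± 5.67 CPM, SD, n = 5 each; edgeR adjusted p = 8.05e-09). Megf10, an engulfment receptor gene, fell 2.78-fold and the integrin gene Itgav 1.87-fold.

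**Figure D5:**
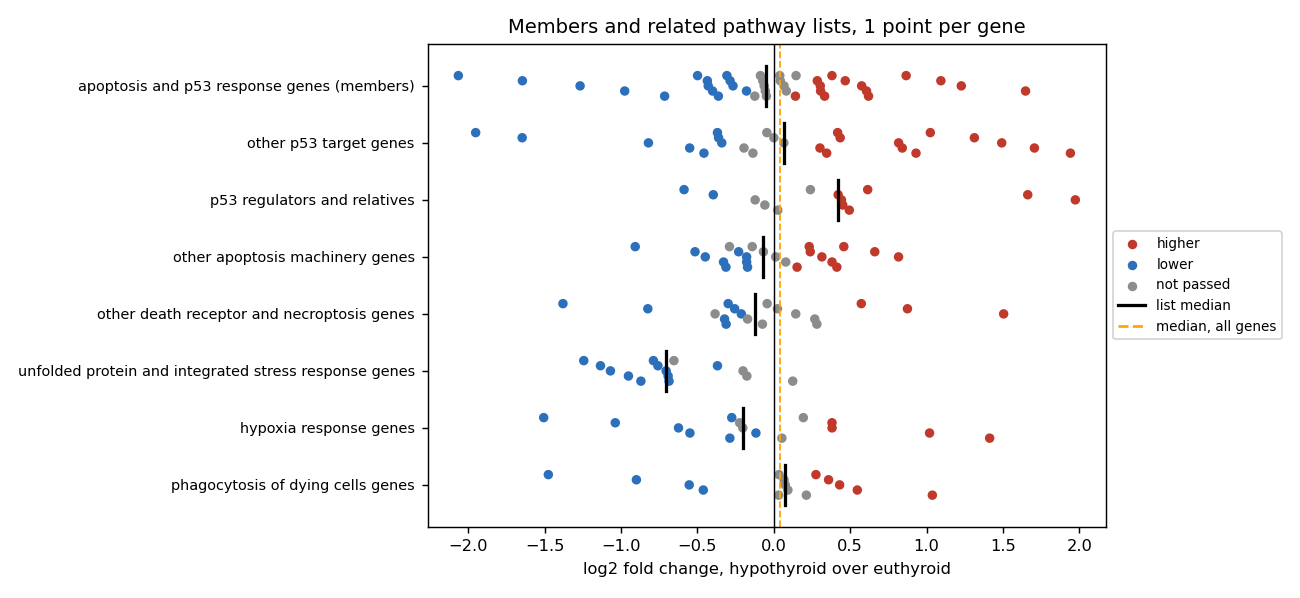
Log2 fold change of hypothyroid over euthyroid libraries, 1 point per tested gene, for the apoptosis and p53 response genes and 7 related lists, with the median of each list as a bar. Medians run from -0.71 for the unfolded protein and integrated stress response genes to 0.42 for p53 regulators and relatives.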

How the data were processed

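Per the labels' protocols, polyadenylated RNA gave single-end 50-base reads (BGI platform); strandedness is not given in the sources used here. The tools named in the submitters' processing notes are RSEM 1.2.12, HISAT2 2.0.4 and Bowtie2 2.2.5, with build GRCm38.p6. The authors deposited expected counts per gene, TPM, FPKM and a scaled signal; the last 2 were not used here. Expected counts were rounded, genes were kept by filterByExpr (minimum count 10), and TMM factors were applied in edgeR 4.0.16. The quasi-likelihood test (robust, two-sided) was adjusted by Benjamini-Hochberg over all genes tested. CPM uses TMM-adjusted library sizes; SE is the absolute log2 fold change over the square root of F. limma 3.58.1 and DESeq2 1.42.0 served as alternatives, in R 4.3.3. The fit was tested on simulated data with few genes changed, which does not test how the libraries were scaled. No library was a duplicate: the mean chi-square per gene of the 20 pairs within groups was 5.39 to 15.7. The genes and lists were chosen with earlier results of these data known. Text names all 40 genes and the 3 genes with the smallest adjusted p of each pathway list but the thyroid hormone check genes. Of those it names Hr and Klf9. Pidd1, Ckap2, Gtse1, Psrc1, Tnfrsf18, Eda2r, Trp53inp1, Fasl and Tnf were named outside this rule after their values were seen. Of Ahsp no value was used. Exon overlaps come from GENCODE M21, and promoters and coordinates from RefSeq (GRCm38.p6). Promoters on chromosome 18, which holds Pmaip1, were left out, and 35 of 40 genes had a promoter among the rest.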

Additional observations from a re-analysis of the deposited data

Results flagged for a closer look

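Over the 80 groups of 5 libraries examined (40 genes in each of 2 groups), 4 held a library far from the other 4, and chance gives about 1 in 20. Bcl2l11 was lowest in euthyroid replicate 2, at 15.3 CPM, with the others at 17.4 to 18.1 CPM. Hrk was highest in euthyroid replicate 4, at 9.41 CPM, against 8.19 to 8.54 CPM in the others. Xiap was highest in euthyroid replicate 1, at 169 CPM, with the others at 160 to 162 CPM. Gadd45a was highest in hypothyroid replicate 4, at 7.99 CPM, against 5.18 to 5.94 CPM in the others, and stayed below every euthyroid library.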

How the results depend on the processing

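The number of genes that differed, 10667, ranged from 10294 to 10663 when 1 library was left out and from 10338 to 11977 over the other alternatives. Scaled by library size alone, 24 members passed as higher and 7 as lower, with limma on log2(TPM + 0.1) or log2(TPM + 1) 22 and 8, and with limma and no filter 21 and 8. Members past 2-fold numbered 5 to 7 over all alternatives, against 6. Of 1344 gene values recomputed over 21 alternatives, 1255 kept direction and call, 32 lost the call, 22 gained it and 35 changed sign. On library sizes alone the log2 fold change turned to 0.086 for Bak1, 0.20 for Bcl2l2, 0.18 for Bnip3, 0.22 for Diablo, 0.14 for Birc3, 0.21 for Fadd and 0.19 for Ripk1. With upper quartile factors it turned to 0.047 for Bcl2l2, 0.022 for Bnip3, 0.061 for Diablo, 0.055 for Fadd and 0.038 for Ripk1. With limma on log2(TPM + 0.1), filtered or not, it turned to 0.046 for Bak1, 0.29 for Bcl2l2, 0.13 for Bnip3, 0.18 for Diablo, 0.10 for Birc3, 0.17 for Fadd and 0.15 for Ripk1. With limma on log2(TPM + 1) it was 0.045, 0.29, 0.13, 0.18, 0.090, 0.16 and 0.14 for the same genes in that order. Bok turned to -0.039 without euthyroid replicate 2 and to -0.0098 without euthyroid replicate 4. Library size and upper quartile scaling move genes by about a common shift; for the other changes the cause was not tested. Same-numbered libraries did not deviate together (correlations of -0.08 to 0.11, and 2 of 5 hypothyroid libraries correlated best with their own number). With the replicate block 10392 genes differed, 14 members were higher and 13 lower, and Bbc3 was the member that lost its call (adjusted p = 0.0733). Pmaip1 was fitted only in some alternatives, with or without the count filter, with adjusted p from 0.0323 to 0.0951 (edgeR or limma). It passed as lower without hypothyroid replicate 1 or 3 or euthyroid replicate 4 or 5 (edgeR adjusted p = 0.0323 to 0.0393). It did not pass without hypothyroid replicate 2 or 5, or where no count filter was applied. Counts under about 100 per group limit what can be said of it.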
